A study of Mus musculus with 6 samples.

Results

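The genes described here encode the proteins of the mitochondrial ribosome, found by their symbols: every gene whose symbol starts with Mrpl or Mrps followed by a number, and which at least 1 probe set measured alone. There were 76 such genes, read by 156 probe sets, of 18193 genes and 45037 probe sets in all. By symbol, 47 genes (104 probe sets) belonged to the large subunit and 29 genes (52 probe sets) to the small subunit. All 76 genes had at least 1 probe set bright enough to be tested, as did 150 of the 156 probe sets. A further 2 genes of the same name pattern were measured only by probe sets shared with another gene and were left out.

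The arrays came from GC1-Spg, an established line derived from mouse type B spermatogonia, dividing germ cells of the testis, immortalised with a viral T antigen. Cells received 100 nM of scrambled siRNA, the control, or 100 nM of siRNA against the noncoding RNA mrhl, and RNA was taken 44 h later. Each group held 3 biological replicates, numbered 1 to 3, with 1 Affymetrix array each, so all values come from a single line and p-values measure the spread between its cultures. No untransfected cells were measured, and no probe set read mrhl itself, so its silencing was not checked here. Values are log2 signals of probe sets, where a difference of 1 is a doubling of signal, and signals of different probe sets do not rank genes by abundance. Groups were compared with limma, a linear model that shares information on the spread across probe sets, with p-values adjusted over all probe sets tested. Replicate numbers did not enter this fit, except where a fit with them as a block is named.

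Mitochondrial ribosomes translate the few respiratory chain proteins encoded in mitochondrial DNA. Their RNA is transcribed inside the organelle, whereas all of their proteins are encoded in the nucleus, made in the cytosol, imported and assembled into a large subunit, which forms peptide bonds, and a small subunit, which reads the message. Symbol and subunit do not always match: the products of Mrps18a and Mrps30 sit in the large subunit, and that of Mrps36 has since been assigned to the oxoglutarate dehydrogenase complex. They are counted here by symbol.

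The labelled cell type was checked with marker genes. Of 13 spermatogonial markers 11 were on the array by name and 9 were tested. Mean log2 signals of these 9 ran from 3.62 to 7.49, and 4 of them lay above the median probe set, at 5.23. The germ cell genes Dazl and Ddx4 lay below the limit for testing. So did Cyp17a1 among the Leydig cell markers and Ptprc and Pecam1 among the blood and endothelial markers. The 8 peritubular and fibroblast markers reached 12.94, in Vim, and 6 of them lay above the median probe set. Their median log2 fold change was 0.22, from -0.69 to 0.49, against -0.04 over all 14885 genes tested, and their mean signal ran from 9.26 to 9.75 on the control arrays and from 9.51 to 9.85 on the mrhl siRNA arrays. Whether this has a part in the values below was not tested. The 8 tested Sertoli cell markers had mean log2 signals from 3.72 to 10.76, and 4 of them lay above the median probe set. The brightest was Wt1, with means of 10.69 after scrambled siRNA and 10.84 after mrhl siRNA. Median log2 fold changes were 0.014 for 8 tested Sertoli cell markers, -0.071 for 3 Leydig cell markers and 0.075 for 4 blood and endothelial markers. None of these markers, nor of the spermatogonial and peritubular ones, passed (limma, smallest adjusted p = 0.965).

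Across the mitochondrial ribosome the groups differed little. Of the 76 genes, 0 passed an adjusted p of 0.05 (limma, smallest adjusted p = 0.965), as did 0 of the 14885 genes tested (0%). The median log2 fold change, mrhl siRNA minus scrambled siRNA, was -0.032 over the large subunit and -0.033 over the small subunit, beside -0.04 over all genes tested. Values were above 0 for 33 of the 76 genes and below 0 for 43, or 56.6%, where 57.9% of all genes lay below 0. The middle of the distribution, from the lower to the upper quartile, ran from -0.12 to 0.055 for the members and from -0.17 to 0.10 for all genes. In 68 of 76 genes (89.5%) the difference was smaller than 0.2, against 67.2% of all genes. The members all lay above the median probe set's signal, and among all genes above it the share was 70.8%. The median standard error of a member's log2 fold change was 0.148, against 0.183 over all genes.

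One gene stood apart. Mrpl32 encodes a protein of the large subunit whose precursor is trimmed in mitochondria by the m-AAA protease, a step needed before it joins the ribosome. Its log2 signal was 9.67, 9.85 and 9.91 after scrambled siRNA and 9.03, 9.12 and 9.05 after mrhl siRNA, replicates 1 to 3 in each. All 3 control arrays lay above all 3 mrhl siRNA arrays, and the lowest control exceeded the highest of the others by more than the SD of either group. The means were 9.81 ± 0.13 (SD, n = 3) and 9.06 ± 0.05 (SD, n = 3). The difference of -0.75 (SE 0.139, 95% interval -1.07 to -0.42) put the signal after mrhl siRNA at 59.6% of the control. Within equal replicate numbers the differences were -0.64, -0.74 and -0.87. The adjusted p was 0.965 (limma, over 33778 probe sets), so the difference did not pass, although its unadjusted p of 0.000872 was the sixth smallest of the 14885 genes by their brightest probe sets (limma). Mrpl32 was singled out with this result known, so its rank is a description. A single probe set measured it, so no other probe set of the gene could be compared.

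**Figure D1:**
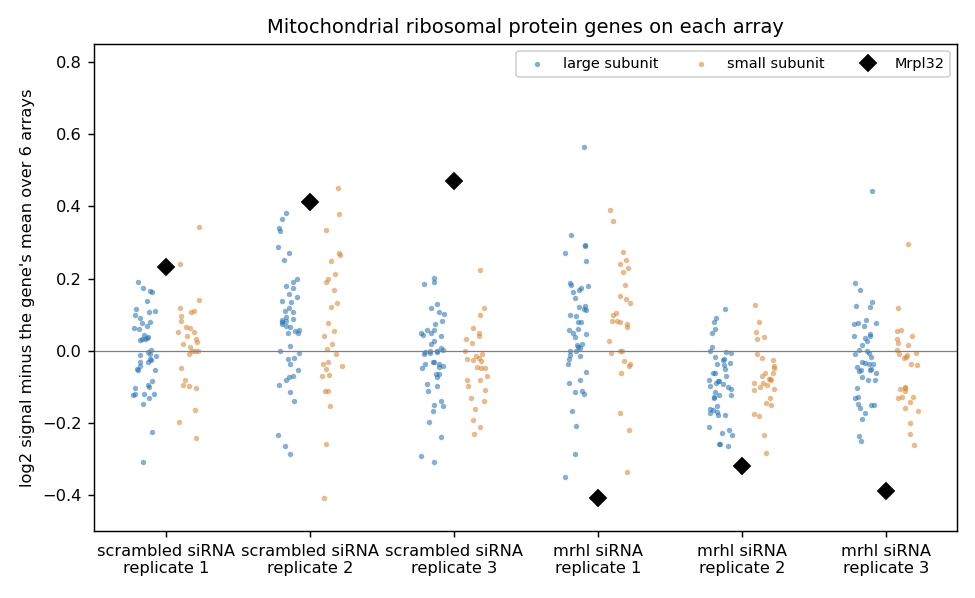
Log2 signal of each of the 76 genes minus that gene's own mean over the 6 arrays (vertical axis), for each array (horizontal axis); blue points are large subunit genes, orange points small subunit genes and black diamonds Mrpl32. Mrpl32 is among the highest points on the 3 scrambled siRNA arrays and the lowest on all 3 mrhl siRNA arrays.

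Relative to its own mean over the 6 arrays, Mrpl32 ranked 74th, 75th and 76th from the lowest of the 76 genes on the 3 control arrays. On each of the 3 mrhl siRNA arrays it ranked 1st, that is, lowest. The difference between Mrpl32 and the median of the other 75 genes on the same array was 0.19, 0.30 and 0.61 in the controls and -0.47, -0.17 and -0.34 after mrhl siRNA. The size of that offset depends on the probes, but its groups did not overlap, and its mean moved by -0.70, from 0.37 ± 0.22 to -0.33 ± 0.15 (SD, n = 3). Leaving Mrpl32 out moved the median of the large subunit from -0.032 to -0.025. It was the only one of the 76 genes with at least a 1.5-fold difference; of all genes tested 0.90% were at least that much lower and 0.974% higher.

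Mrpl32 lies back to back with Psma2, which encodes a subunit of the proteasome core. In RefSeq (GRCm38.p6) the 2 transcription starts are separated by 204 bases, so the same stretch lies upstream of both genes. That stretch is shown because it lets the 2 genes be compared, with the upstream 250 bases of Mrpl44 and Mrpl45. Mrpl44 is another large subunit gene whose groups did not overlap by its brightest probe set, and Mrpl45 comes from the other end of the order. Capitals mark matches to motifs of factors known to act on nuclear genes of mitochondrial proteins: NRF1 (GCGCA and GCGC with 1 base of any kind between them), ETS factors such as GABPA (CCGGAAG), YY1 (AANATGGCG) and SP1 (GGGCGG), on either strand. Each sequence is written 5′ to 3′ along its gene and ends at the base before the start.
Mrpl32, chr13:14613038-14613241, minus strand: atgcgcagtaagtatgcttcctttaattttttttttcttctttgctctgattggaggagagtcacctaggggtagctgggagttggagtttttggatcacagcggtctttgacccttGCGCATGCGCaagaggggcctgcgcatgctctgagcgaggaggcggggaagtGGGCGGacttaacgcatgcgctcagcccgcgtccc
Mrpl44, chr1:79775768-79776017, plus strand: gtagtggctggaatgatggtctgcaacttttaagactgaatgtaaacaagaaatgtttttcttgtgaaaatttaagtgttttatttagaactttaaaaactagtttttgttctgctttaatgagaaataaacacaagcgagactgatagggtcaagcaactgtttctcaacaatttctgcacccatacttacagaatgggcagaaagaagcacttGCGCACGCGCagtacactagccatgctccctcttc
Mrpl45, chr11:97315466-97315715, plus strand: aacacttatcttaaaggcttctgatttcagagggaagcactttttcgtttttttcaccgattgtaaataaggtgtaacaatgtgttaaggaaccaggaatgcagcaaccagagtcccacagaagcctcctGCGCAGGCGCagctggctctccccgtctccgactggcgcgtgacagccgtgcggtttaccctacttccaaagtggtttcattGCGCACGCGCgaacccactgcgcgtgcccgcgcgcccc

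The stretch between Mrpl32 and Psma2 holds 1 NRF1 match, which reads on both strands and lies 87 to 78 bases before the start of Mrpl32, and 1 SP1 match. The other stretches hold NRF1 matches only. Psma2 had log2 signals of 11.13, 11.50 and 11.36 in the controls and 11.11, 11.15 and 11.29 after mrhl siRNA. Its groups overlapped, and its log2 fold change of -0.15 (SE 0.154, 95% interval -0.51 to 0.21) did not pass (limma, adjusted p = 0.965). Mrpl32 was chosen with its value known, so its difference from Psma2 was not tested. The next genes on the array further from Mrpl32 were AW209491, with 0.053 (SE 0.162), the ubiquitin ligase gene Hecw1, with -0.35 (SE 0.186), and the chromatin regulator gene Arid4b, with -0.039 (SE 0.137).

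**Figure D2:**
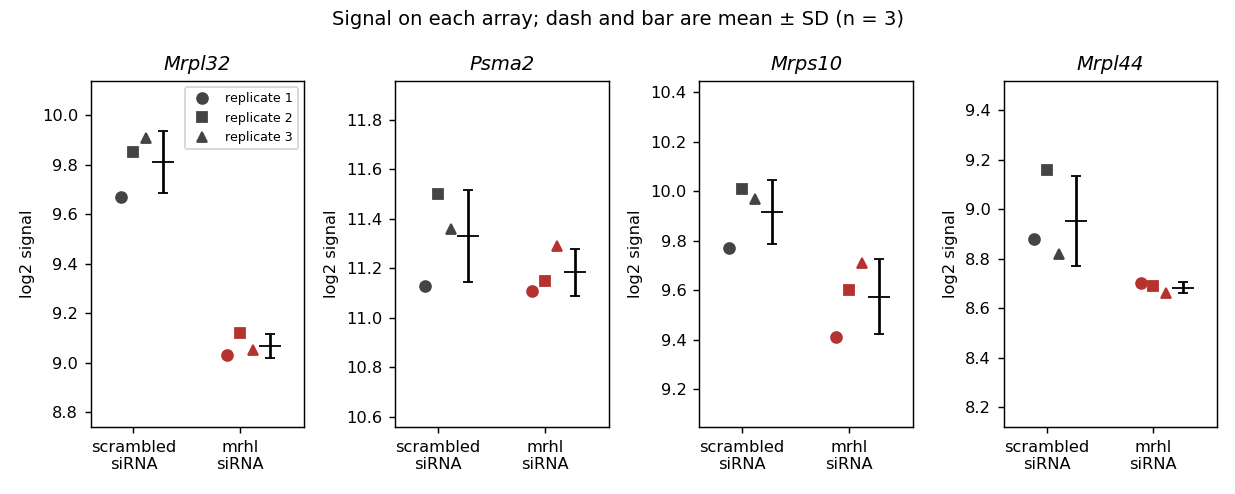
Log2 signal on each array for Mrpl32, its neighbour Psma2, Mrps10 and Mrpl44, scrambled siRNA in grey and mrhl siRNA in red, with circles, squares and triangles for replicates 1, 2 and 3; the dash and bar give mean ± SD (n = 3), and each vertical axis spans the same range of log2 units. By the brightest probe set of each gene, shown here, the groups are apart in Mrpl32, Mrps10 and Mrpl44 and overlap in Psma2.

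Of the 76 genes, 67 matched a promoter window in RefSeq (250 bases before to 50 after each start, GRCm38.p6). The NRF1 motif was found in 12 of them (17.9%), and in 9.88% of the 11845 genes tested on the arrays that had a window. The ETS motif was in 25 (37.3%, against 17.2%), the YY1 motif in 11 (16.4%, against 5%) and the SP1 motif in 34 (50.7%, against 63%). A gene counted once if any of its windows held the motif, and a match is not shown to be a bound site. The median log2 fold change was 0.015 in the 12 genes with the NRF1 motif and -0.033 in the 55 without. For the ETS motif these values were -0.011 and -0.036, and for YY1 -0.032 and -0.033. Genes with an NRF1 match thus stood at both ends of the order, with Mrpl32, Mrpl39 and Mrpl44 among the lowest values and Mrpl45 among the highest.

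In the large subunit, the values next to Mrpl32 were smaller, with -0.30 the lowest. Mrpl39 had log2 signals of 10.03, 10.53 and 10.34 in the controls and 9.80, 9.92 and 10.27 after mrhl siRNA. Its groups overlapped, because the third mrhl siRNA array lay above the first control, and its log2 fold change was -0.30 (SE 0.196). In a dimmer probe set of Mrpl39 the groups did not overlap, with -0.17 (SE 0.134). Mrpl44, whose product has the fold of an RNase III, stood at 8.88, 9.16 and 8.82 and at 8.70, 8.69 and 8.66. Its groups did not overlap, with a log2 fold change of -0.27 (SE 0.149), or -0.16 without scrambled siRNA replicate 2. In its other, dimmer probe sets the groups overlapped, with -0.22 (SE 0.170), -0.21 (SE 0.152) and -0.052 (SE 0.129). Mrpl1, part of the mobile stalk through which spent tRNAs leave, had -0.22 (SE 0.200). Replicate number 2 gave -0.53, and numbers 1 and 3 gave -0.060 and -0.065. A dimmer tested probe set of Mrpl1 had -0.15 (SE 0.133), without overlap. None of these genes passed (limma, adjusted p = 0.965 for the brightest probe set of each).

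At the other end of the large subunit was Mrpl54, with log2 signals of 8.47, 8.46 and 8.16 in the controls and 9.03, 8.45 and 8.23 after mrhl siRNA. Its log2 fold change of 0.21 (SE 0.229) rested on mrhl siRNA replicate 1, and without that array it was -0.023. A dimmer probe set of Mrpl54 had -0.30 (SE 0.280). Mrpl45, which lies at the exit of the peptide tunnel beside the inner membrane, had 0.16 (SE 0.220), with positive differences in all 3 replicate numbers, and -0.019 without mrhl siRNA replicate 3. Mrpl23 and Mrpl52 had 0.14 (SE 0.179) and 0.12 (SE 0.135), also positive in all 3. Other probe sets of Mrpl52 had 0.17 (SE 0.146) and 0.15 (SE 0.139), and its dimmest had -0.15 (SE 0.232), negative in all 3. Among the brightest and dimmest probe sets of the subunit, Mrpl33 had -0.011 (SE 0.151), Mrpl13 -0.032 (SE 0.130) and Mrpl37 0.10 (SE 0.132).

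In the small subunit the lowest value belonged to Mrps10, a protein of the head of the subunit. Its log2 signal was 9.77, 10.01 and 9.97 in the controls and 9.41, 9.60 and 9.71 after mrhl siRNA, so its groups did not overlap. The difference between the means was -0.34 (SE 0.152, 95% interval -0.70 to 0.011), with -0.36, -0.40 and -0.27 within the replicate numbers. A dimmer probe set of Mrps10, at log2 signals between 5.02 and 5.82, had 0.14 (SE 0.243). The next lowest were Mrps31 with -0.18 (SE 0.197), Mrps9 with -0.16 (SE 0.196) and Mrps22 with -0.15 (SE 0.149). In Mrps31 and Mrps9 replicate number 2 gave -0.53 and -0.56, and the other numbers gave values between -0.013 and 0.062.

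The highest values by small subunit symbols were those of Mrps18a, with 0.17 (SE 0.147), and Mrps36, with 0.16 (SE 0.152), both positive in all 3 replicate numbers. Of the 3 genes said above to belong elsewhere by their products, these are 2; the other, Mrps30, had -0.061 (SE 0.129), negative in all 3 numbers, and was named after its value was seen. Mrps14 had 0.12 (SE 0.138), and the pentatricopeptide repeat gene Mrps27 had 0.10 (SE 0.224), from arrays between 6.07 and 6.82. By the brightest probe set of each, the groups overlapped in Mrps18a, Mrps36, Mrps14 and Mrps27. Of the dimmer probe sets of Mrps14, 1 had 0.18 (SE 0.132), without overlap, and 1 had -0.054 (SE 0.15), with overlap. Mrps17, the brightest in the subunit, had 0.024 (SE 0.134), and Mrps11, among the dimmest, had -0.14 (SE 0.173). Of 3 tested probe sets of Mrps15, the brightest had 0.056 (SE 0.184), another 0.25 (SE 0.147) and the dimmest -0.25 (SE 0.402).

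**Figure D3:**
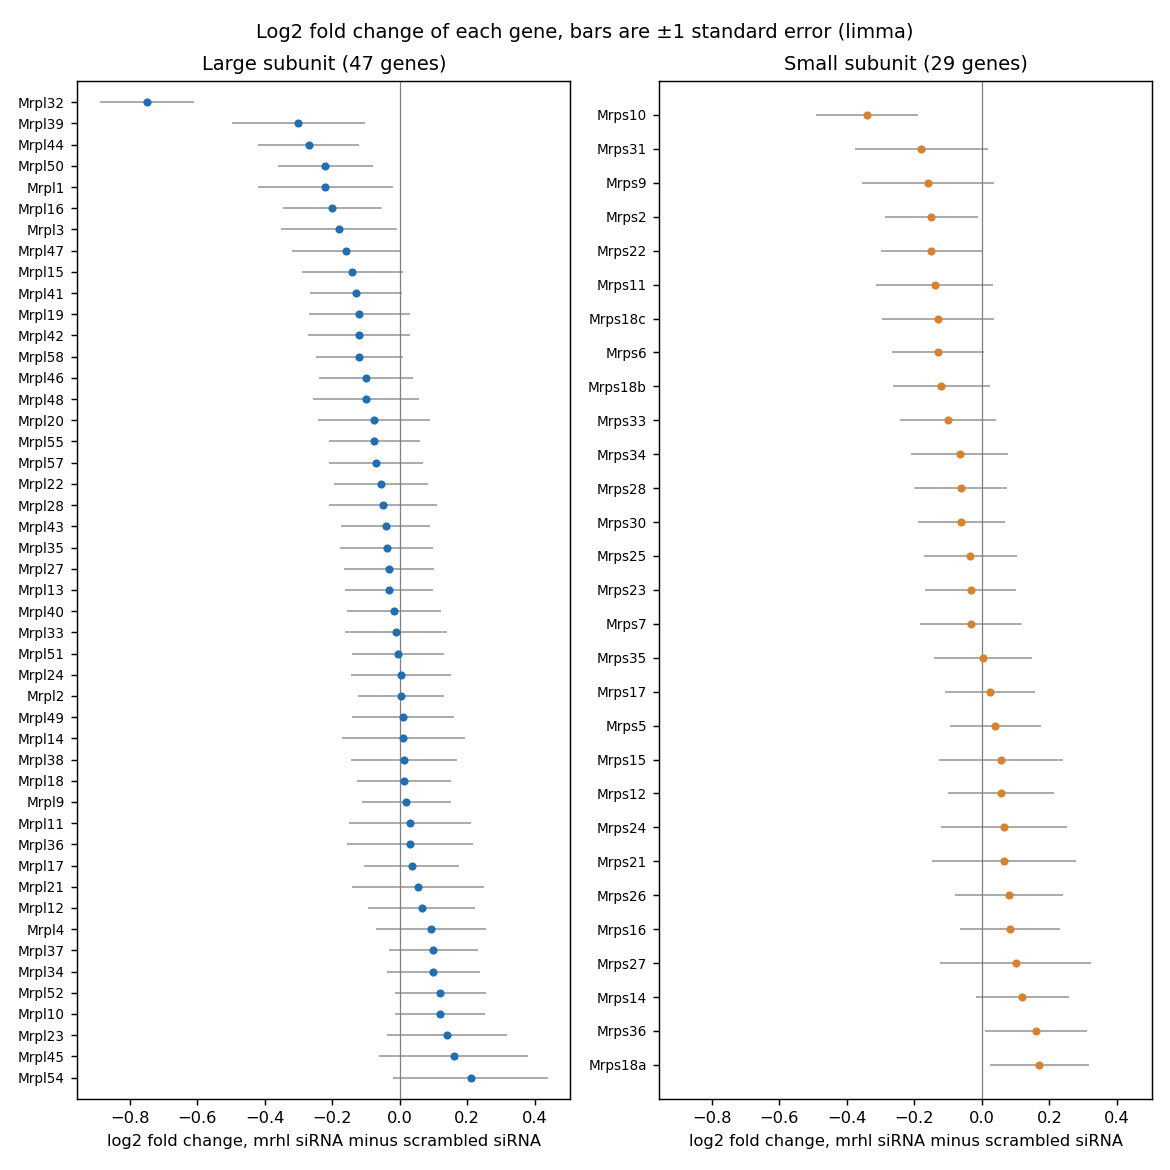
Log2 fold change (horizontal axis, mrhl siRNA minus scrambled siRNA) of the 47 large subunit and 29 small subunit genes, ordered by value, each read through its brightest probe set; bars are ±1 standard error of the limma fit. Mrpl32, at -0.75, lies apart from Mrps10, at -0.34, the next lowest of all 76, and the highest value is 0.21, in Mrpl54.

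The groups did not overlap in 6 genes, all lower after mrhl siRNA (7.89% of the 76, where 6.13% of all genes were lower without overlap), and in 0 genes higher (2.3% of all genes). Beside Mrpl32, Mrps10 and Mrpl44 they were Mrpl50, with -0.22 (SE 0.141), Mrpl58, the peptidyl-tRNA hydrolase of the large subunit, with -0.12 (SE 0.129), and Mrps6, with -0.13 (SE 0.137). The last 3 were named after their values were seen. In Mrps6 the gap was narrow, since scrambled siRNA replicates 1 and 3 and mrhl siRNA replicate 1 all stood at 8.87. A dimmer probe set of Mrps6 had -0.02 (SE 0.137), with overlap. Dimmer ones of Mrpl50 and Mrpl58 had -0.28 (SE 0.154), without overlap, and -0.29 (SE 0.267), with overlap. At an unadjusted p under 0.05 stood 1 lower gene, Mrpl32, and 0 higher genes (limma), beside 1.98% and 0.86% of all genes. With the replicate number as a block, 2 lower genes, Mrpl32 and Mrps10, and 0 higher genes came under it, beside 5.89% and 3.14% of all genes, and 0 members passed the adjusted threshold (limma, smallest adjusted p = 0.487).

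Across the replicate numbers, which pair the arrays, most genes lay on 1 side of 0 in numbers 1 and 2, but on opposite sides. In number 1 the mrhl siRNA array was higher in 52 of the 76 genes, with medians of 0.053 in the large and 0.065 in the small subunit. In number 2 it was lower in 58, with medians of -0.15 and -0.13. In number 3, 39 genes were higher and 37 lower, with medians of 0.013 and 0.00028. The medians over all genes tested were -0.024, -0.079 and -0.026 in the same order. In all 3 numbers 16 of the 76 genes were lower (21.1%, against 26.1% of all genes) and 9 were higher in all 3 (14.5% of all genes). Large and small subunit genes had medians of like sign and size in numbers 1 and 2, and in number 3 both medians lay close to 0.

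**Figure D4:**
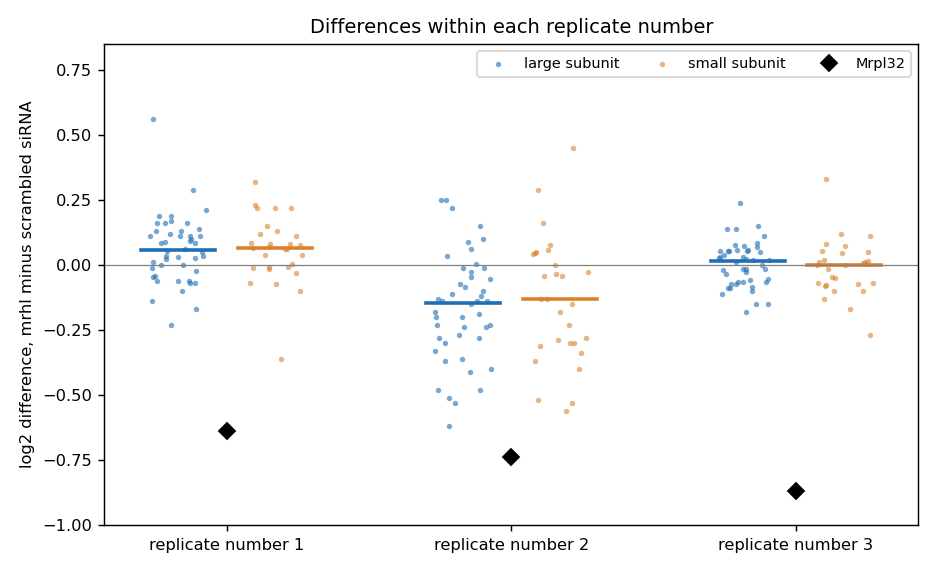
Log2 difference between the mrhl siRNA and the scrambled siRNA array of equal replicate number (vertical axis), for replicate numbers 1 to 3 (horizontal axis); blue and orange points are large and small subunit genes, short lines their medians without Mrpl32, and black diamonds Mrpl32. Most genes lie above 0 in number 1 and below 0 in number 2, whereas Mrpl32 lies at -0.64, -0.74 and -0.87.

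Of the 76 genes, 42 had several probe sets, and 40 had more than 1 that was tested. All tested probe sets agreed in sign in 21 of these genes and differed in 19. Mrpl54 and Mrps15 were the only genes whose probe sets differed by over 0.5 in log2 fold change. Among the 150 tested probe sets 88 had negative values, where 56.2% of all tested probe sets did. The groups did not overlap in 13 lower and 3 higher ones, beside 5.82% and 2.58% of all tested probe sets. Beside Mrpl32, 2 lower and 0 higher probe sets had an unadjusted p under 0.05 (limma, 2.18% and 1.26% of all tested probe sets), both of Mrpl3, with -0.46 each (SE 0.182 and 0.185) at dim mean signals of 4.44 and 4.39 in the controls. The brighter probe sets of Mrpl3, a protein near the peptidyl transferase center, had -0.18 (SE 0.173) and -0.10, from control signals of 9.31 and 8.57.

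Genes that work with the mitochondrial ribosome were taken from lists by function, 113 tested genes in all. Of these 0 passed (limma, with or without the block). Without the block, 0 higher and 3 lower ones had an unadjusted p under 0.05 (limma, beside 0.86% and 1.98% of all genes). With it, 1 higher and 3 lower ones did (limma, beside 3.14% and 5.89% of all genes). The groups did not overlap in 2 higher and 6 lower ones (2.3% and 6.13% of all genes). Their median log2 fold change was -0.046. The 1 higher gene with the block was the aminoacyl-tRNA synthetase gene Cars2. It had the highest log2 fold change of the 113 genes, 0.62 (SE 0.371), with overlap, and was named after its value was seen. Of 4 tested mitoribosomal proteins with other symbols, 2 had positive and 2 negative values; the small subunit gene Ptcd3 had -0.19 (SE 0.163) and the large subunit gene Gadd45gip1 0.15 (SE 0.147). The 14 translation factors had a median of -0.091, with 5 positive and 9 negative. Among them the release factor gene Mtrf1l stood at 7.36, 7.45 and 7.54 in the controls and 6.99, 6.70 and 7.31 after mrhl siRNA, without overlap and with a log2 fold change of -0.45 (SE 0.184). The elongation factor gene Tsfm had -0.30 (SE 0.207).

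The 25 assembly and ribosomal RNA factors had a median of -0.054, with 16 negative, among them the rRNA methyltransferase gene Tfb1m at -0.30 (SE 0.187) and Ngrn at -0.23 (SE 0.155). The 19 aminoacyl-tRNA synthetase and amidotransferase genes had a median of -0.010. Aars2, for alanine, had 0.33 (SE 0.161) without overlap, at dim signals between 4.67 and 5.28. Qrsl1, which helps to charge the tRNA for glutamine, had -0.50 (SE 0.264). Within replicate numbers 1 to 3 Qrsl1 had -0.12, -1.22 and -0.15. The 12 genes of mitochondrial transcription and RNA processing had a median of -0.082, with 9 negative. In that list were the elongation factor gene Tefm at -0.24 (SE 0.151), the RNase P gene Hsd17b10 at -0.11 (SE 0.146) and the DNA packaging factor gene Tfam at -0.053 (SE 0.132).

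The next lists hold inner membrane proteases, among them the m-AAA protease that trims the precursor of Mrpl32, and genes of mitochondrial protein import. Afg3l2, the core subunit of the m-AAA protease, stood at 8.33, 8.54 and 8.81 in the controls and 8.21, 8.24 and 8.64 after mrhl siRNA, with overlap and -0.20 (SE 0.193). Its partner Spg7 had -0.0033 (SE 0.195), and the i-AAA protease gene Yme1l1 had -0.30 (SE 0.182). Over the 9 inner membrane protease and prohibitin genes the median was 0.039. In the 20 import genes, with a median of -0.00076, the processing peptidase gene Pmpcb had 9.37, 9.28 and 9.15 in the controls against 9.07, 8.70 and 8.68, without overlap, and a log2 fold change of -0.45 (SE 0.163). The import chaperone gene Timm8a1 had -0.24 (SE 0.151), also without overlap.

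Among 10 regulators of nuclear genes for mitochondria, 5 had positive and 5 negative values. Ppargc1a, a coactivator of mitochondrial biogenesis, stood at 4.62, 4.99 and 5.39 in the controls and 4.44, 4.22 and 4.14 after mrhl siRNA, with -0.74 (SE 0.218) and no overlap. All of its values but 1 lay below 5.23, the signal of the median probe set, a range in which noise weighs more on the log2 scale. Nrf1, whose product binds the NRF1 motif, had 0.17 (SE 0.183). The ETS factor gene Gabpa had -0.17 (SE 0.209), its partner Gabpb2 -0.22 (SE 0.141) without overlap, and Yy1 -0.047 (SE 0.142). Esrra, named after its value was seen, was higher without overlap, with 0.22 (SE 0.154). None of these regulators passed (limma, adjusted p = 0.965 or more).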

How the data were processed

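The authors deposited 1 table of log2 expression values, with a row per probe set and a column per array. GCOS and PLIER made them, per the submitters' processing notes. How the arrays were normalized, and with what settings, is not given in the sources used here. That the values are log2 was read from their range. Array medians differed by at most 0.11, so values were used as deposited. Of 45037 probe sets that were not controls, 33778 had a mean at or above the 25th percentile (3.62). These were tested with limma 3.58.1 in R 4.3.3 (lmFit, eBayes, Benjamini-Hochberg over all of them, threshold 0.05). The fit was also run on simulated data with independent noise on each array, so that run does not bear on pairs of arrays. A gene was read through its brightest tested probe set paired with it alone; GEO's platform annotation named 34945 probe sets with 1 symbol and 932 with several. Intervals are 95% intervals of the fit. The number of arrays limits the precision.

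Equal replicate numbers were read as pairs, since their deviations from the group means correlated at 0.534, 0.201 and 0.567, above a limit of 0.1, and the design text speaks of independent experiments. The main fit did not use these pairs. Standard errors, intervals and p-values come from it unless the block is named. With the block the SE went from 0.220 to 0.108 in Mrpl45 and from 0.218 to 0.221 in Ppargc1a. The named genes are Mrpl32 and its neighbours, 4 members at each end of each subunit's order, the 2 brightest and 2 dimmest of each, members whose probe sets differ by over 0.5, the 2 smallest p of each list, and Afg3l2, Spg7, Nrf1, Gabpa, Yy1 and Tfam. The members, lists and rules were chosen with earlier results of these data known. Alternatives were quantile normalization, equal array medians, other filters, array weights, a robust variance with a trend, the replicate block, each array left out, and the average over the probe sets of each gene. Figures were drawn with matplotlib 3.10.9.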

Additional observations from a re-analysis of the deposited data

How the results depend on the processing

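Mrpl32 kept its direction and did not pass in any of the 14 alternatives, with log2 fold changes from -0.82 to -0.70 and adjusted p from 0.487 to 1 (limma). With the replicate number as a block (replicate block) it had -0.75 (limma, adjusted p = 0.487), and that block changed no other call. No gene of the array or of the mitochondrial ribosome passed in any alternative (limma). The count of 6 mitoribosomal genes without overlap was 4 with quantile normalization, 5 with equal array medians and 7 with the mean of probe sets; with an array left out it ran from 10 to 19, since 5 arrays part more easily than 6. It had no value of its own under the block, the filters, the variance model or the weights, which leave the arrays' values as they are. The subunit medians, both close to 0, lay between -0.077 and 0.0013 (large) and between -0.081 and 0.012 (small) with an array left out, and were -0.00055 and -0.0010 with quantile normalization. Leaving out mrhl siRNA replicate 2 turned both to above 0.

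Of 46 other named genes, 14 had a sign that turned in at least 1 alternative, and none of them passed in any. Mrpl33 became 0.011 with quantile normalization and 0.00051 with equal array medians, and Spg7 0.024 and 0.0079. Under array weights AW209491 had -0.0059. With the mean of probe sets Mrpl54 had -0.044, Gabpb2 0.086 and Nrf1 -0.025. With an array left out the ranges of genes whose sign turned were -0.10 to 0.053 for Mrpl33, -0.19 to 0.10 for Spg7, -0.041 to 0.14 for AW209491 and -0.11 to 0.0085 for Arid4b. They were -0.064 to 0.0013 for Mrpl13, -0.019 to 0.31 for Mrpl45, -0.023 to 0.38 for Mrpl54 and -0.12 to 0.0011 for Yy1. In the small subunit they were -0.08 to 0.21 for Mrps15, -0.0098 to 0.072 for Mrps17, -0.075 to 0.30 for Mrps27 and -0.33 to 0.00037 for Mrps31. The cause of these turns was not tested. The other 34 genes kept their sign with any array left out, but in 24 of them at least 1 array moved the value by over 1.5 times. Among these, without scrambled siRNA replicate 2 Mrps9 had -0.0091, Tfam -0.015, Ptcd3 -0.058, Mrps22 -0.058 and Psma2 -0.062. Without scrambled siRNA replicate 3 Afg3l2 had -0.074, and without replicate 1 Nrf1 had 0.046. Without mrhl siRNA replicate 1 Gabpa had -0.028 and Mrpl23 0.033, without replicate 2 Hsd17b10 had -0.015, and without replicate 3 Mrps11 had -0.04. The 10 genes that moved by less were Mrps10, Mrpl37, Mrpl52, Gabpb2, Hecw1, Mtrf1l, Pmpcb, Ppargc1a, Tefm and Yme1l1.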
